A study of Chlorocebus sabaeus with 45 samples.

Results

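The genes described here encode the hypoxia-inducible factors and the enzymes that sense oxygen for them: HIF1A, EPAS1, ARNT, EGLN1, EGLN2, EGLN3, VHL, HIF1AN, PDK1 and VEGFA. They were chosen by gene symbol, and 9 of the 10 matched 1 of the 33994 gene rows in the expression tables, while ARNT was not analysed here. All 9 were among the 18753 genes tested. The samples were whole blood of 15 wild-born juvenile male vervet monkeys (Chlorocebus sabaeus) from St. Kitts, and each animal gave 1 RNA-seq library on day 0, day 3 and day 14 of a relocation from the wild to a primate facility. On day 0 the animals were trapped and sampled in the field under ketamine and xylazine. On days 3 and 14 they lived in individual housing and were sampled under dexmedetomidine and midazolam. Every animal was relocated, so place, sedation and time since capture cannot be told apart in comparisons with day 0, while days 3 and 14 share housing and sedation. RNA quality also moved with the days: the mean RNA integrity number in the study's sample table was lowest on day 0 and highest on day 14, so a model that holds this number shares part of its fit with the day. Between 13216275 and 31469332 fragments per library fell on genes.

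Hypoxia-inducible factors (HIF) are transcription factors made of an oxygen-regulated alpha subunit, encoded by HIF1A or EPAS1, and the partner encoded by ARNT. In the presence of oxygen, prolyl hydroxylases encoded by EGLN1, EGLN2 and EGLN3 mark the alpha subunit, the VHL protein binds the mark, and the subunit is ubiquitinated and degraded. The asparaginyl hydroxylase encoded by HIF1AN, also called factor inhibiting HIF, blocks the binding of coactivators. When oxygen falls the alpha subunit escapes, and genes of glycolysis, glucose uptake and blood vessel growth are transcribed, among them PDK1, VEGFA and, as a feedback, EGLN1 and EGLN3. Much of this control acts on protein, which RNA levels do not measure. In blood, HIF1A is known for its part in the glycolytic metabolism of neutrophils and macrophages, and oxygen sensing through EPAS1 in the kidney sets the production of erythropoietin and so of red cells.

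Levels are given as FPKM, fragments relative to gene length and library total, after TMM scaling (trimmed mean of M values), and changes as log2 fold changes of scaled FPKM + 0.1 from limma with the animal as a block. A gene was called at a Benjamini-Hochberg adjusted p-value under 0.05 over the 18753 tested genes. On day 3 vs. day 0, limma called 4 of the 9 genes, a rise of EGLN3 and falls of EGLN1, PDK1 and VEGFA. Over all tested genes 19.4% were called in that comparison, 10.1% up and 9.26% down. On day 14 vs. day 0 it called 6 of 9, with EGLN3 up again and EGLN1, EGLN2, PDK1, VEGFA and VHL down, beside 44.2% of all tested genes (20.7% with a rise, 23.4% with a fall). On day 14 vs. day 3 it called 2 of 9, PDK1 and HIF1AN, both down, beside 25.4% of all tested genes (12.2% with a rise, 13.2% with a fall). The median log2 fold change of the 9 genes was −0.20, −0.33 and −0.18 in the 3 comparisons, beside 0.01, −0.05 and −0.05 over all tested genes. Without TMM scaling the median of all tested genes moved to −0.03, −0.36 and −0.35. For day 14 vs. day 0 this replaced 3887 rises and 4395 falls by 1741 rises and 9334 falls. For day 14 vs. day 3 it replaced 2291 rises and 2471 falls by 936 rises and 8655 falls. Changes involving day 14 are therefore relative to the typical gene. Animals 7, 15 and 11 had the 3 lowest TMM factors of day 0 (0.701, 0.801 and 0.907). They also had the 3 highest day 0 levels of both HIF1A and VEGFA, in scaled and in deposited values. An analysis without these 3 animals was added after seeing the data. It called 2 of the 9 genes on day 3 vs. day 0 (EGLN1 and PDK1). It called 6 of 9 on day 14 vs. day 0, and 3 of 9 from day 3 to day 14 (PDK1, HIF1AN and VHL), and over all tested genes 2089, 7047 and 5529 in place of 3634, 8282 and 4762.

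On day 0 the mean levels per length ran from HIF1A, at 52.1 ± 24.5 FPKM (SD, n = 15), over EGLN2 (36.2 ± 5.52), PDK1 (34.2 ± 7.31), VHL (33.8 ± 12.3), HIF1AN (17.9 ± 2.21), EGLN1 (14.7 ± 5.38) and EGLN3 (10.9 ± 2.99) to VEGFA (2.53 ± 1.76) and EPAS1 (0.351 ± 0.273). Of the 8 steps between neighbours in this order, 3 passed an exact two-sided sign-flip test over the 15 animals: VHL over HIF1AN, EGLN3 over VEGFA and VEGFA over EPAS1, each with the higher gene higher in 15 of 15 animals and adjusted p = 1.63e-04. HIF1A over EGLN2 (adjusted p = 0.0711), HIF1AN over EGLN1 (0.0711) and EGLN1 over EGLN3 (0.0598) did not pass by the same exact test. HIF1AN over EGLN1 passed without animal 11 (0.0276), and EGLN1 over EGLN3 passed without animal 1 (0.0156), animal 5 (0.0256) or animal 6 (0.0366). EGLN2 over PDK1 (mean log2 ratio 0.10, exact adjusted p = 0.364) and PDK1 over VHL (0.04, exact adjusted p = 0.609) did not pass either.

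**Figure D1:**
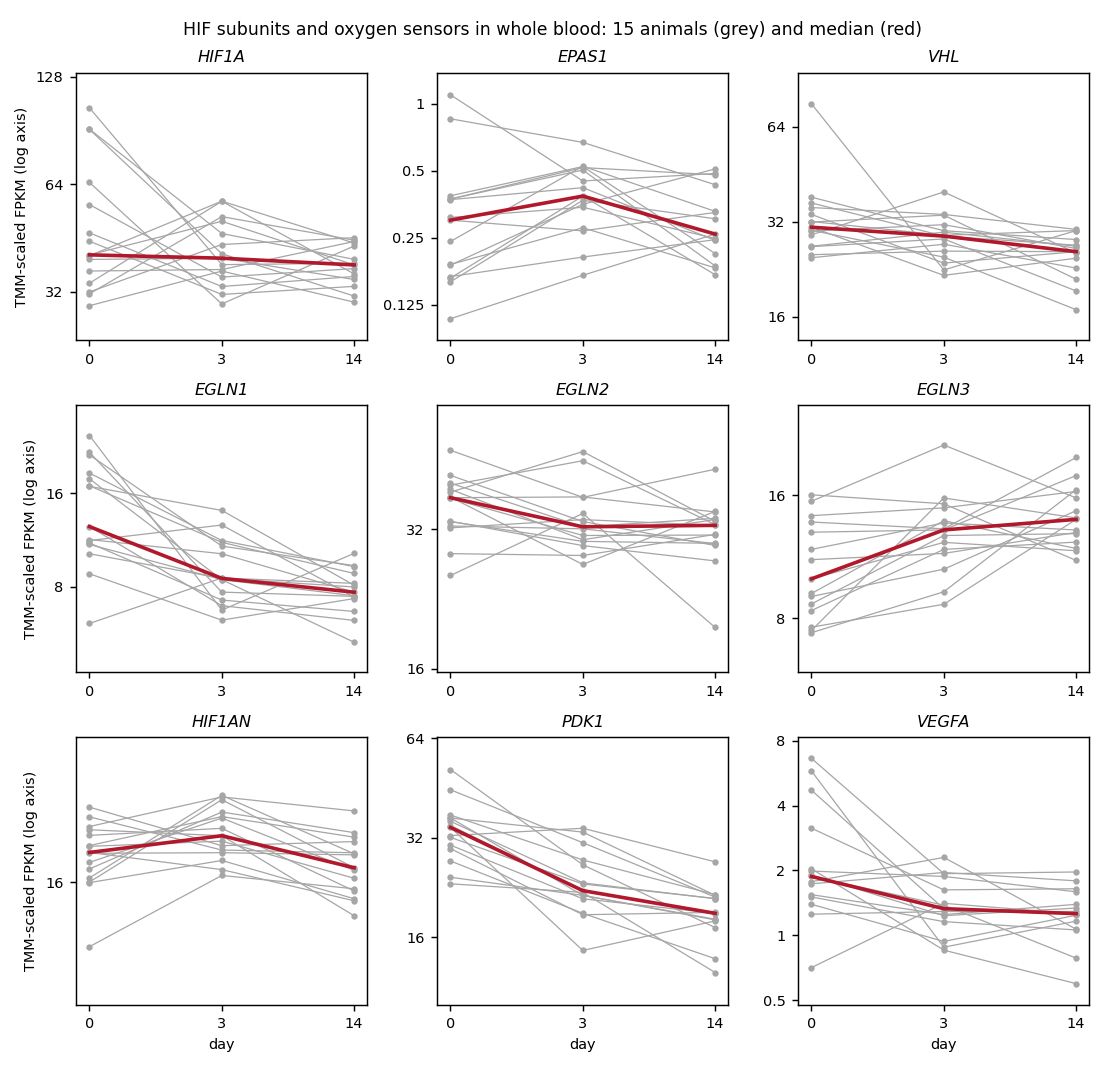
TMM-scaled FPKM on a log axis (vertical) on days 0, 3 and 14 (horizontal) for 9 genes, with a grey line for each of the 15 animals and the median in red. The median of EGLN1 went from 12.5 to 8.52 and 7.69 FPKM and that of PDK1 from 34.4 to 22.2 and 18.9, while that of EGLN3 went from 9.99 to 13.2 and 14.0.

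HIF1A encodes the oxygen-regulated subunit of HIF-1, and no comparison called it. On day 0 its scaled level ranged from 29.2 to 105 FPKM with a median of 40.5, on day 3 from 29.5 to 57.3 with a median of 39.7, and on day 14 from 29.9 to 45.3 with a median of 38.0. The groups overlapped, and the highest values, 91.0 to 105 FPKM, were those of animals 7, 11 and 15 on day 0. The deposited, unscaled values overlapped too, but shifted as a whole, with 35.2 to 82.7 FPKM on day 0, 25.7 to 68.2 on day 3 and 17.7 to 50.9 on day 14. The standard deviation of the scaled log2 level was 0.60, 0.30 and 0.19 in order of day, against 0.39, 0.34 and 0.44 for the deposited values and 0.34, 0.34 and 0.20 for scaled values without the 3 animals. The spread on day 0 thus depended on the scaling and on these animals, and it was not tested. The log2 fold change was −0.22 on day 3 (SE 0.15, adjusted p = 0.322; 0.02 without the 3 animals) and −0.33 on day 14 vs. day 0 (SE 0.15, 95% confidence interval −0.63 to −0.03, adjusted p = 0.0674, lower in 9 of 15 animals). Without animals 7, 11 and 15 the latter was −0.06 (adjusted p = 0.725). It was called without animal 1 (−0.39, adjusted p = 0.0383), without animal 5 (−0.39, 0.0338) and without TMM scaling (−0.72, 9.45e-05). From day 3 to day 14 it was −0.11 (adjusted p = 0.607), and without TMM scaling called at −0.46 (0.00976).

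EPAS1, the alpha subunit of HIF-2, is best known from endothelium, kidney and lung, and had the lowest level of the 9 genes here. It rested on 16 to 105 fragments per library. The day 0 values lay between 0.108 and 1.09 FPKM (median 0.299), the day 3 values between 0.169 and 0.669 (median 0.384) and the day 14 values between 0.170 and 0.509 (median 0.259). No comparison called it. Its log2 fold change on day 3 was 0.27 (95% confidence interval −0.03 to 0.56, adjusted p = 0.202), with 12 of 15 animals higher, and on day 14 vs. day 0 it was −0.02 (−0.31 to 0.27, adjusted p = 0.916). From day 3 to day 14 it was −0.29 (−0.58 to 0.00, adjusted p = 0.135), and without TMM scaling that difference was called (−0.54, adjusted p = 0.00584). The changes of the 2 alpha subunits on day 3, −0.22 for HIF1A and 0.27 for EPAS1, differed by −0.49 ± 0.71 (SD, n = 15, adjusted p = 0.0275, exact sign-flip test, HIF1A below EPAS1 in 11 animals). That call was lost when 1 rather than 0.1 was added (−0.28, adjusted p = 0.151) and without animal 8 (0.0549) or animal 9 (0.0533).

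EGLN1 encodes PHD2, the main prolyl hydroxylase for HIF1A in most cells and a HIF target itself. Its level on day 0 lay between 6.10 and 24.5 FPKM with a median of 12.5. On day 3 it lay between 6.25 and 14.1 (median 8.52) and on day 14 between 5.31 and 10.3 (median 7.69). The ranges overlapped, but the upper part of the day 0 range was empty on day 14. EGLN1 fell by 0.60 on the log2 scale on day 3 (SE 0.12, adjusted p = 0.00123, lower in 13 of 15 animals) and by 0.82 on day 14 (SE 0.12, adjusted p = 4.24e-06, lower in 14 animals), a level 0.568 times that of day 0. Animal 5, which had the lowest level on day 0, was the 1 animal that was higher on day 14. From day 3 to day 14 the difference was −0.22 (adjusted p = 0.195), and without TMM scaling it was called (−0.57, adjusted p = 0.00284).

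EGLN2 encodes PHD1, which is not itself induced by HIF in most cells. Its day 0 values ran from 25.4 to 47.3 FPKM (median 37.4), the day 3 values from 26.8 to 47.0 (median 32.4) and the day 14 values from 19.6 to 43.1 (median 32.6). The 3 ranges overlapped widely after scaling, and that of day 14 began and ended lowest. The log2 fold change on day 3 was −0.10 (adjusted p = 0.354). On day 14 EGLN2 fell by 0.19 (SE 0.07, adjusted p = 0.0268, lower in 13 of 15 animals), a call lost without animal 6 (−0.17, adjusted p = 0.0619) and without the animal block (adjusted p = 0.0830). On day 14 vs. day 3 it was −0.09 (adjusted p = 0.342), and without TMM scaling that difference was called too (−0.44, adjusted p = 0.00556).

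EGLN3 encodes PHD3, the isoform most strongly induced by hypoxia in many cell types, and it was the 1 gene of the 9 that rose. Its values ran from 7.38 to 16.02 FPKM on day 0 (median 9.99), from 8.66 to 21.2 on day 3 (median 13.2) and from 11.1 to 19.8 on day 14 (median 14.0). The lowest scaled day 14 value exceeded the day 0 median, although the ranges overlapped. It rose by 0.29 on day 3 (SE 0.10, adjusted p = 0.0291, higher in 13 of 15 animals) and by 0.42 on day 14 (SE 0.10, adjusted p = 5.89e-04, higher in 14 animals). The day 3 call was lost at a like fold change without the animal block (0.29, adjusted p = 0.0907), with the RNA integrity number in the model (0.26, 0.0881) and without the filter (0.29, 0.0509). It was also lost without animal 2 (0.0508), 5 (0.0545), 11 (0.0848), 12 (0.0554) or 15 (0.0587), or all of animals 7, 11 and 15 (0.21, 0.194). Without TMM scaling the rise was 0.25 on day 3 (adjusted p = 0.156) and 0.03 on day 14 (adjusted p = 0.811), so that the rise of EGLN3 was one relative to the typical gene.

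The 3 prolyl hydroxylase genes changed unequally within the same samples. A scaling factor is shared by all genes of a library, so these differences do not turn on it apart from the 0.1 added before the logarithm. Relative to EGLN3, EGLN1 changed by −0.89 ± 0.65 on day 3 and by −1.24 ± 0.55 on day 14 (log2, SD, n = 15), and the change of EGLN1 lay below that of EGLN3 in 15 of 15 animals both times (adjusted p = 3.66e-04 for both, exact two-sided sign-flip test over 12 differences). Relative to EGLN2, it changed by −0.50 ± 0.64 (adjusted p = 0.0179) and −0.63 ± 0.55 (0.00381) by the same exact test. EGLN2 relative to EGLN3 changed by −0.39 ± 0.34 on day 3 and by −0.61 ± 0.41 on day 14 (adjusted p = 0.00110 for both, exact test). From day 3 to day 14, EGLN1 relative to EGLN3 was −0.35 ± 0.50 (adjusted p = 0.0262, exact test), which was lost without animal 8 (0.0521) or animal 9 (0.0523). Over that interval EGLN2 relative to EGLN3 (−0.22, exact adjusted p = 0.0632) passed without animal 2 (0.0195), 4 (0.0357) or 11 (0.0370), and EGLN1 relative to EGLN2 (−0.12, exact adjusted p = 0.226) passed without animal 7 (0.0471). In deposited FPKM the ratio of EGLN3 to EGLN1 was 0.352 to 1.62 on day 0 (median 0.736), 0.685 to 2.75 on day 3 (median 1.46) and 1.43 to 2.47 on day 14 (median 1.88). The animals in which EGLN3 was the more abundant of the pair numbered 3 on day 0, then 13 and finally 15. EGLN2 was above EGLN1 in 15 of 15 animals on every day, with median ratios of 2.83, 3.90 and 4.06.

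VHL, which recognizes the hydroxylated alpha subunit within a ubiquitin ligase, fell on day 14. Its level was 24.6 to 75.6 FPKM on day 0 (median 30.7), 21.6 to 39.8 on day 3 (median 28.8) and 16.8 to 30.3 on day 14 (median 25.7). The highest value came from animal 7 on day 0, which after scaling was also the highest of that day for HIF1A, EGLN1 and PDK1. In deposited values animal 7 was the highest of that day for VHL but not for those other genes. On day 14 VHL was lower by 0.37 (SE 0.10, adjusted p = 0.00356, lower in 14 of 15 animals), and without animal 7 by 0.31 (still called). The difference was −0.20 on day 3 (adjusted p = 0.182) and −0.18 from day 3 to day 14 (adjusted p = 0.203), the latter called without animal 7 (−0.22, 0.0325), without animals 7, 11 and 15 (−0.22, 0.0340) and without TMM scaling (−0.53, 0.00312).

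HIF1AN, which encodes the asparaginyl hydroxylase, varied least among the animals after scaling. It lay between 12.5 and 21.4 FPKM on day 0 (median 17.9), between 16.4 and 22.4 on day 3 (median 19.1) and between 14.1 and 21.1 on day 14 (median 16.9). Against day 0 its log2 fold change was 0.12 on day 3 (adjusted p = 0.135) and −0.06 on day 14 (95% confidence interval −0.18 to 0.06, adjusted p = 0.426), although without TMM scaling the latter was called (−0.45, adjusted p = 0.00151). From day 3 to day 14 it fell by 0.18 (SE 0.06, adjusted p = 0.0209) and was lower in 14 of 15 animals. That call was lost without the animal block (−0.18, adjusted p = 0.0514) and with the RNA integrity number in the model (−0.18, 0.0680), at nearly the same fold change.

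PDK1 encodes a kinase that shuts off pyruvate dehydrogenase and so turns pyruvate away from the mitochondria, and it is a classic HIF-1 target. It was the 1 gene of the 9 called in all 3 comparisons. On day 0 its level was 23.3 to 51.6 FPKM with a median of 34.4, on day 3 it was 14.6 to 34.2 with a median of 22.2, and on day 14 it was 12.5 to 27.1 with a median of 18.9. On day 14, 14 of 15 samples lay below the lowest day 0 sample, and on day 3 this held for 9 of 15. The fall was 0.52 on day 3 (SE 0.08, adjusted p = 2.00e-04, lower in 14 animals) and 0.82 on day 14 vs. day 0 (adjusted p = 6.82e-08, lower in 15 of 15 animals). PDK1 fell by a further 0.31 between day 3 and day 14, within shared housing and sedation (adjusted p = 0.00823, lower in 13 animals), though not past the threshold without the animal block (adjusted p = 0.0506).

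VEGFA encodes the growth factor through which hypoxic tissue attracts blood vessels, and leukocytes also make it. It rested on 47 to 482 fragments per library. Values lay between 0.709 and 6.62 FPKM on day 0 (median 1.88), between 0.854 and 2.30 on day 3 (median 1.33) and between 0.597 and 1.97 on day 14 (median 1.26). The ranges overlapped, and the 3 highest values of day 0, 4.71 to 6.62 FPKM, were those of animals 7, 11 and 15. VEGFA fell by 0.59 on day 3 (SE 0.19, adjusted p = 0.0228, lower in 11 of 15 animals) and by 0.72 on day 14 (SE 0.19, adjusted p = 0.00221, lower in 12 animals). The day 3 call was lost without animal 7 (−0.51, adjusted p = 0.0601), animal 11 (−0.45, 0.0676) or animal 15 (−0.51, 0.0586) and without the animal block (0.0520). Without these 3 animals together the difference was −0.24 on day 3 (adjusted p = 0.340) and −0.42 on day 14 (adjusted p = 0.0325). From day 3 to day 14 it differed by −0.13 (adjusted p = 0.652).

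**Figure D2:**
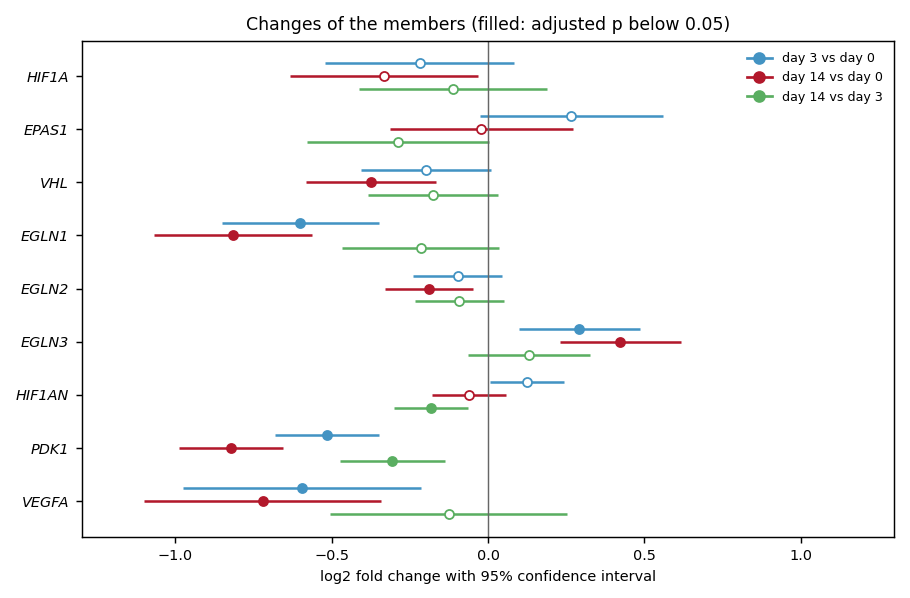
Log2 fold change with its 95% confidence interval from limma (horizontal) for 9 genes (vertical) in 3 comparisons, with filled points for an adjusted p-value under 0.05. EGLN3 is the 1 gene with filled points to the right of 0, and PDK1 has filled points in all 3 comparisons.

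The 6 lists of genes around the pathway held 110 symbols, of which 109 matched a row and 104 were tested. On day 14 vs. day 0, 24 of the 104 rose and 31 fell (median log2 fold change −0.05, the same as over all tested genes to 2 decimals), beside 20.7% rises and 23.4% falls over all tested genes. Without TMM scaling 10 rose and 61 fell. On day 3 vs. day 0, 15 of the 104 rose and 16 fell, beside 10.1% and 9.26% of all tested genes, and 10 rose and 9 fell without animals 7, 11 and 15. On day 14 vs. day 3, 11 rose and 19 fell, beside 12.2% and 13.2%. Without scaling the last split became 5 up and 59 down, beside 936 up and 8655 down over all 18753 tested genes. When the RNA integrity number entered the model, 33 of the 104 were called on day 14 vs. day 0 and 10 in the later interval, beside 4359 and 2015 of all tested genes. Since the mean integrity number rose with the day, its part in these counts cannot be fully told apart from that of the day.

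Among HIF partners and coactivators, 4 of 9 tested genes passed the test on day 14 vs. day 0, all of them falls (median −0.13), a share close to the 44.2% called over all tested genes, and 6 fell without TMM scaling. CITED4, which competes with HIF for its coactivators, went from 5.79 ± 6.30 to 0.970 ± 0.384 FPKM (log2 fold change −1.87, adjusted p = 3.01e-05, lower in 14 of 15 animals). STAT3, a transcription factor that cooperates with HIF-1, went from 27.4 to 18.8 FPKM (−0.48, adjusted p = 0.0139), and was at −0.42 but not past the threshold with the RNA integrity number in the model (adjusted p = 0.137). The fall of the coactivator CREBBP, by 0.43 (adjusted p = 0.0345), was lost with that covariate (−0.17, adjusted p = 0.609), without the block (0.0566), without the filter (0.0603) and without animal 1, 2, 4, 7, 11, 12, 13 or 14 (0.0515 to 0.0753).

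In the list of the VHL ubiquitin ligase and HIF turnover, 7 of 16 genes rose on day 14 vs. day 0 and 2 fell (median 0.17), beside 20.7% and 23.4% over all tested genes, although without TMM scaling 3 rose and 7 fell. RBX1, the RING subunit of the ligase, rose from 222 ± 216 to 839 ± 474 FPKM (log2 fold change 2.13, adjusted p = 1.43e-06, higher in 14 animals), and TCEB2, the gene of its elongin B subunit, from 67.3 ± 50.2 to 182 ± 95.4 (1.57, adjusted p = 4.55e-05). FKBP8, which anchors the turnover of prolyl hydroxylase PHD2, rose most, from 643 ± 551 to 2696 ± 1349 FPKM (2.42, adjusted p = 4.06e-06). CUL2, the cullin scaffold of the same ligase, fell by 0.27 (adjusted p = 0.0102) and SIAH1, a ubiquitin ligase for prolyl hydroxylases, by 0.24 (adjusted p = 0.00281). With the RNA integrity number in the model both missed the threshold, at log2 fold changes of −0.27 (adjusted p = 0.0790) and −0.19 (0.0979).

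HIF target genes changed in both directions on day 14 vs. day 0, as genes in general did (20.7% up and 23.4% down). On day 3 vs. day 0, 10 of the 39 tested rose and 6 fell, beside 10.1% and 9.26% of all tested genes. Of 39 tested, 12 rose and 9 fell on day 14 vs. day 0 (median −0.07), and 6 rose and 22 fell without TMM scaling. The red-cell glucose transporter SLC2A1 (1.90, adjusted p = 2.24e-06), BNIP3L (2.11, adjusted p = 1.05e-05), which directs the clearance of mitochondria from maturing red cells, and the MYC antagonist MXI1 (2.18, adjusted p = 3.91e-06) rose most. BNIP3L went from 1500 ± 1636 to 5305 ± 3285 FPKM. The leukocyte glucose transporter SLC2A3 fell from 278 ± 221 to 77.9 ± 16.3 FPKM (−1.50, adjusted p = 4.14e-06, lower in 15 of 15 animals). PFKFB3, which makes the activator of phosphofructokinase, fell by 1.26 (adjusted p = 1.35e-04), and SLC16A3, which exports lactate, by 1.12 (adjusted p = 1.03e-04). The 2 glucose transporters, both classic HIF-1 targets, thus changed in opposite directions.

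**Figure D3:**
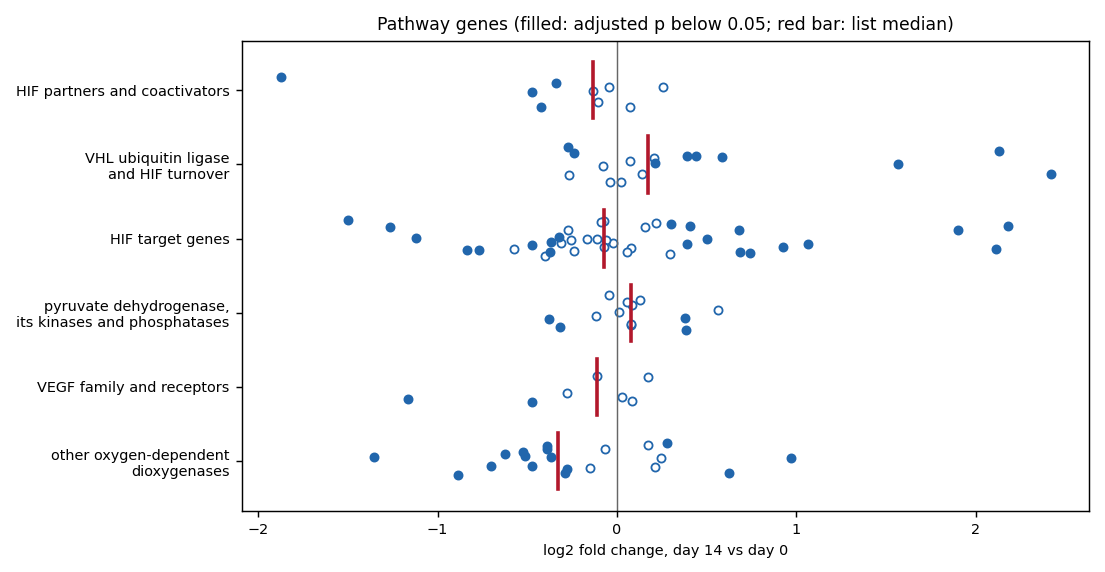
Log2 fold change on day 14 vs. day 0 (horizontal) of the 104 tested genes of 6 lists (vertical), 1 point per gene with filled points for an adjusted p-value under 0.05 and a red bar for the median of each list. HIF target genes spread to both sides of 0, and the list medians lie between −0.33 and 0.17.

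Among pyruvate dehydrogenase, its kinases and phosphatases, 2 of 13 genes rose and 2 fell on day 14 vs. day 0 (median 0.08), a share below the 44.2% over all tested genes, and 0 rose and 8 fell without TMM scaling. On day 3, when PDK1 had already fallen by 0.52, limma called 0 of the 13 and 19.4% of all tested genes, with 2 of the 13 at an unadjusted p under 0.05 and 0 called by voom. PDK3, another kinase of the complex, fell from 12.5 ± 2.77 to 9.78 ± 1.49 FPKM (−0.32, adjusted p = 0.00149). The remaining kinases, named here after their values were seen, passed no test on day 14 vs. day 0: PDK2 had a log2 fold change of 0.01 (adjusted p = 0.935) and PDK4 of 0.56 (adjusted p = 0.298). PDHB, a subunit of the dehydrogenase, and MPC2, of the carrier that brings pyruvate into mitochondria, each rose by 0.38 (adjusted p = 0.00115 and 4.94e-04), but were at −0.01 without TMM scaling and not called with the RNA integrity number in the model (0.172 and 0.226). PDPR, a regulator of the phosphatase, fell by 0.38 (adjusted p = 0.0237), and not past the threshold with that covariate (−0.07, 0.803) or without animal 1, 12 or 14 (0.0527 to 0.0630).

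In the VEGF family and its receptors, 2 of 7 tested genes passed the test on day 14 vs. day 0, both of them falls (median −0.11), again below the 44.2% over all tested genes, with 4 falls without TMM scaling. FLT4, the receptor of VEGFC, fell from 6.44 ± 5.46 to 2.20 ± 0.874 FPKM (−1.16, adjusted p = 3.12e-05, lower in 14 animals). NRP1, a coreceptor, had a log2 fold change of −0.28 (adjusted p = 0.296), called without TMM scaling (−0.66, 0.0125). By limma it was at 0.50 on day 3 vs. day 0 (adjusted p = 0.0960) and fell by 0.78 from day 3 to day 14 (adjusted p = 0.00903). Of 20 other oxygen-dependent dioxygenases, which share the chemistry of the HIF hydroxylases, 12 fell on day 14 vs. day 0 and 3 rose (median −0.33), beside 23.4% and 20.7% over all tested genes, with 14 falls and 1 rise without TMM scaling. The histone demethylase KDM6B fell from 4.89 ± 2.60 to 1.70 ± 0.523 FPKM (−1.35, adjusted p = 3.89e-06) and was lower in 15 of 15 animals. TET2, an enzyme of DNA demethylation, fell by 0.89 (adjusted p = 2.67e-06) and TET3 by 0.70 (adjusted p = 4.17e-06). KDM5B (0.97, adjusted p = 3.87e-04), ASPH (0.62, adjusted p = 5.14e-04) and KDM4C (0.28, adjusted p = 0.0282) rose. Without TMM scaling ASPH missed the threshold (0.24, 0.0778) and KDM4C was at −0.12, and KDM4C was also lost with the RNA integrity number in the model (0.177), without the filter and without animal 7, 8, 9 or 15 (0.0607 to 0.0776).

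Cell type markers moved with the days, and in whole blood fewer cells of a type and less RNA per cell cannot be told apart. No matched marker was at 0 in all samples. All 12 neutrophil markers fell on day 14 vs. day 0, beside 23.4% of all tested genes, and 10 of them on day 3, beside 9.26%. Between days 3 and 14 limma called 0 of them, with 2 at an unadjusted p under 0.05 and 1 called by voom. In that interval, in which PDK1 and HIF1AN fell, 9 of 11 platelet, 6 of 8 B cell and 5 of 7 monocyte markers fell, and 5 of 12 erythroid, 3 of 8 NK cell and 2 of 9 T cell markers rose, beside 12.2% rises and 13.2% falls over all tested genes. The summed neutrophil level ranged from 268 to 2870 FPKM on day 0, from 115 to 655 on day 3 and from 94.6 to 502 on day 14. All 12 matched erythroid markers rose on day 14 and 10 on day 3, with sums of 396 to 21115, 3389 to 38338 and 6594 to 61270 FPKM. On day 14 vs. day 0, 7 of 11 platelet markers and 6 of 8 NK cell markers rose, beside 20.7% of all tested genes. On day 3, 11 of 11 platelet and 5 of 8 NK cell markers had risen, beside 10.1%. Of 7 monocyte markers 3 fell on day 14 vs. day 0, of 9 T cell markers 3 rose and of 8 B cell markers 3 fell. The rest of these lists did not pass the threshold in that comparison, beside 20.7% rises and 23.4% falls over all tested genes. The summed monocyte level ranged from 784 to 7699 FPKM on day 0 and from 844 to 2439 on day 14, the T cell level from 285 to 688 and from 426 to 744, the B cell level from 78.9 to 580 and from 143 to 371, the NK cell level from 71.7 to 202 and from 134 to 502, and the platelet level from 245 to 4351 and from 420 to 3434.

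Within each day, the level of EGLN1 followed the summed neutrophil markers over the 15 animals, with Pearson r of 0.87, 0.58 and 0.60 in order of day, and with 0.68, 0.65 and 0.33 on deposited values. EGLN2 followed the T cell markers (0.77, 0.40 and 0.83) and the B cell markers (0.46, 0.49 and 0.70). Its r was negative with the neutrophil (−0.58, −0.18 and −0.79) and monocyte markers (−0.56, −0.57 and −0.31). HIF1A and VEGFA followed the neutrophil markers on day 0 (0.90 and 0.80) and less on day 14 (0.04 and 0.45). Without animals 7, 11 and 15 (n = 12), EGLN1 had 0.89 on day 0. HIF1A and VEGFA then had 0.72 and 0.39 on day 0 and 0.23 and 0.38 on day 14, so that VEGFA hardly differed between these days. They also followed the monocyte markers on day 0 (0.70 and 0.80, but 0.20 and 0.45 without the 3 animals), and HIF1A did so on day 3 (0.58). On day 14 the highest r of VEGFA was with the NK cell markers (0.72). EGLN3 had r of 0.65 and 0.62 with the NK cell markers on days 0 and 3 and −0.04 on day 14, and PDK1 had r of 0.20, −0.04 and −0.51 with the neutrophil markers. On day 14 PDK1 had r of 0.70 with the B cell and 0.49 with the T cell markers, against −0.23 and 0.24 on day 0 and −0.10 and 0.07 on day 3. With the NK cell markers it had 0.03, −0.55 and −0.51 in order of day. PDK1 fell both from day 0 to day 3 and from day 3 to day 14, while the median log2 fold change of the B cell markers was 0.27 and −0.66. The r values are descriptions over 15 libraries per day that share their scaling. The part of cell numbers in the changes of the 9 genes and of the genes in the pathway lists was not tested.

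**Figure D4:**
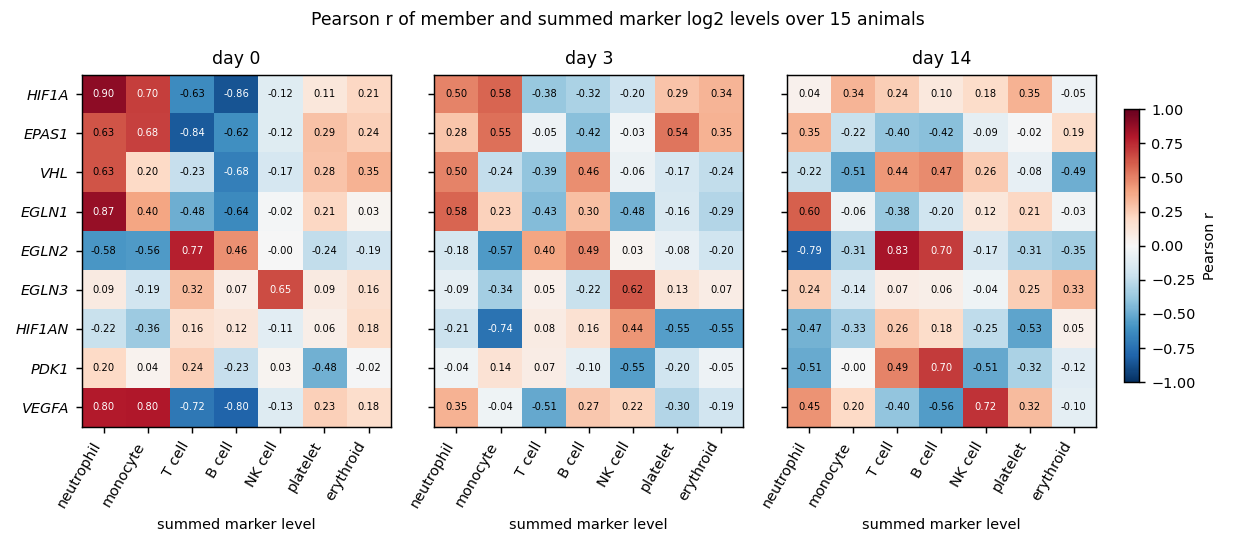
Pearson r over 15 animals between the log2 level of each of 9 genes (vertical) and the log2 summed level of 7 marker lists (horizontal) on days 0, 3 and 14, from blue for −1 to red for 1. EGLN1 is positive with neutrophil markers on each day (0.87, 0.58 and 0.60), while the row of HIF1A is strongly colored on day 0 (0.90 with neutrophil markers) and pale on day 14 (0.04).

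Relations among the 9 genes over the animals changed both ways with the day. Of the 36 pairs, 17 had a smaller absolute r on day 14 than on day 0 and 19 a larger one. HIF1A and VEGFA had r of 0.85 at the start, 0.04 on day 3 and −0.02 on day 14. HIF1A and EGLN1 had 0.82, 0.29 and 0.21, and HIF1A and VHL had 0.64, 0.24 and 0.23. Without animals 7, 11 and 15 the day 0 values of these 3 pairs were 0.48, 0.83 and 0.57 (n = 12), and on deposited FPKM with all animals they were 0.68, 0.67 and 0.07. On day 14 the deposited values gave 0.57, 0.79 and 0.86, so for HIF1A with EGLN1 and with VHL the direction from day 0 to day 14 depends on the scaling. In the other direction, PDK1 and VEGFA had 0.10, −0.50 and −0.85, EGLN1 and HIF1AN had −0.34, −0.28 and −0.79, and EGLN2 and PDK1 had 0.05, −0.22 and 0.60. These last 3 pairs are given on scaled values of all animals only, and their dependence on the scaling was not examined. The SD of scaled log2 levels among animals was smaller on day 14 than on day 0 for 8 of the 9 genes, by most for VEGFA (0.83 and 0.40), HIF1A (0.60 and 0.19) and EGLN1 (0.55 and 0.24), by little for PDK1 (0.30 and 0.27) and HIF1AN (0.19 and 0.16), while EGLN2 had 0.23 and 0.24. In deposited values it was smaller on day 14 for 4 genes and larger for 5, so the direction depends on the scaling. In scaled values without animals 7, 11 and 15 it was smaller for 7. There VEGFA had 0.47 and 0.41, HIF1A 0.34 and 0.20 and EGLN1 0.51 and 0.22, so the large drop of VEGFA rested on these animals. Whether these relations or spreads differed between days was not tested.

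Over all 45 samples, which share animals and days, the genes with the most similar profiles were found outside the pathway lists. Those nearest to HIF1A were ALOX5AP (r = 0.872), needed for leukotriene synthesis, ZNF281 (0.870) and HGF (0.861), the hepatocyte growth factor. Nearest to EGLN1 were RNF145 (0.911), the Fc receptor gene FCGR2A (0.894) and FUT7 (0.889), which makes selectin ligands on leukocytes. EGLN2 lay nearest to GRAP (0.839), an adaptor of lymphocytes, BRF2 (0.828) and TBC1D10C (0.808). For VEGFA they were BCL3 (0.844), TBC1D8B (0.836) and C6H19orf35 (0.828), and for PDK1 they were ZBTB18 (0.829), RAPGEF6 (0.824) and CDC14A (0.824). EGLN3 had lower maxima, with the interleukin receptor gene IL12RB1 (0.711), OBSL1 (0.681) and PRR5L (0.679). VHL was nearest to LOC103224054 (0.815), RNF114 (0.812) and ARHGAP9 (0.791), HIF1AN to LOC103215798 (0.712), RNF26 (0.694) and THOC5 (0.692), and EPAS1 to GPC4 (0.674), PHTF1 (0.668) and SH3PXD2B (0.662).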

How the data were processed

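Per the labels and the study's methods, whole-blood RNA was depleted of ribosomal and globin RNA, and stranded libraries were sequenced as paired ends. The authors demultiplexed with bcl2fastq 2.17, aligned reads to Chlorocebus_sabeus 1.1 (STAR) and took fragment counts from HTSeq, whose strand setting is not given in the sources used here. The deposited values are FPKM without scaling between libraries. Every gene with a value above 0 (33635 genes) gave whole fragments, 100% of values within 0.05, so fragments and totals were recovered (largest distance 2.77e-04).

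Genes above 0.5 CPM in at least 3 samples (18753 genes; the limit equals 6.61 to 15.7 fragments, depending on the library) were tested. FPKM were scaled by TMM (own implementation, trims of 30% and 5%), 0.1 was added, and log2 values were fitted with limma 3.58.1 in R 4.3.3, 1 mean per day, animal as block, variance trend, Benjamini-Hochberg adjustment. Fold changes are on that log2 scale and understate changes of low genes. The pairing comes from the animals: after removal of day means, 41 of 45 pairs of samples from 1 animal had r over 0.1 (mean 0.328, lowest −0.0422, other pairs −0.0230). The limma fit was tested on simulated counts with equal scaling factors, which examined neither the TMM scaling nor the sign-flip tests. Differences between related genes and between levels were tested by exact two-sided sign-flips over the 15 animals (32768 sign patterns, smallest p 6.1e-05), adjusted over 12 and 8 tests. A fit of voom weights on the recovered fragments was an alternative, which called 3845, 8143 and 5011 genes in the order day 3 vs. day 0, day 14 vs. day 0, day 14 vs. day 3. The integrity numbers used in another alternative came from the study's sample table.

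The members, lists and markers were chosen with earlier results of these data known. In each list the text names up to 3 rises and 3 falls with the largest change on day 14 vs. day 0 among called genes of mean 1 FPKM or more, or the 2 most abundant genes where fewer than 2 were called, and for each member the 3 genes of highest r. Older symbols in the tables were matched (TCEB2 for ELOB, for example). PGAM1 of the HIF targets and some of the listed markers were not analysed here. Sequences were not used here.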

Additional observations from a re-analysis of the deposited data

How the results depend on the processing

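All 9 genes kept their direction in every alternative apart from HIF1A on day 3 vs. day 0, EPAS1 on day 14 vs. day 0 and EGLN3 on day 14 vs. day 3, none of them called. EPAS1 turned positive with the RNA integrity number (0.043) or with 0.01 added (0.00597), and lay between −0.101 and 0.0501 with each animal left out in turn, above 0 without animal 2, 11, 12, 13 or 15. EGLN3 turned to −0.22 without TMM scaling. Of the listed genes, KDM4C (−0.12), MPC2 (−0.00998) and PDHB (−0.00798) turned on day 14 vs. day 0 without TMM scaling. The change of HIF1A relative to EPAS1 on day 14 vs. day 3 turned to −0.0147 with 1 added. Without the animal as a replicate block, the members called went from 4 to 2 on day 3 vs. day 0, from 6 to 5 on day 14 vs. day 0 and from 2 to 0 on day 14 vs. day 3 by limma (2 at an unadjusted p under 0.05, and voom with the block called 2), and the pathway genes on day 14 vs. day 3 from 30 to 18. With the integrity number, day 14 vs. day 3 gave 1 member and 10 pathway genes, and day 14 vs. day 0 33 pathway genes in place of 55. Without TMM scaling, day 14 vs. day 3 gave 7 members and 64 pathway genes. With each animal left out in turn, members called on day 3 vs. day 0 lay between 2 and 4, and 2 was reached without animal 11 and without animal 15. Calls of members with 0.01 added, with 1 added and with voom were as many as in the reported fit. Without animals 7, 11 and 15, an alternative chosen after seeing the data, day 3 vs. day 0 gave 2 members and 19 pathway genes, HIF1A turned to 0.0241 on day 3 vs. day 0 and EPAS1 to 0.104 on day 14 vs. day 0, where the calls of CREBBP, CUL2, KDM4C and STAT3 were lost (adjusted p 0.0607 to 0.254). Over all tested genes the block fit called 3634, 8282 and 4762 genes in the order day 3 vs. day 0, day 14 vs. day 0, day 14 vs. day 3. Without the block the counts were 2323, 6789 and 2716, with the integrity number 2824, 4359 and 2015, and without TMM scaling 2465, 11075 and 9591. The cause of these differences was not tested. Depth limits EPAS1 most, at 16 to 105 fragments per library.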
